A study of Mus with 14 samples.

Results

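Loss of the TNF receptor TNFR1 on top of a Dnmt3a mutation was examined in blood progenitors by comparing the 3 mice labelled Dnmt3a;Tnfr1KO with the 4 mice labelled Dnmt3a, which are 7 of the 14 mice of the series. The mice were taken by the genotype in the sample titles, and no measured value entered that choice. Each mouse gave 1 droplet-based 3' single-cell RNA library of Kit+, lineage-negative bone marrow cells of the donor type CD45.2. The cells came from secondary transplants into aged, irradiated CD45.1+ hosts that were harvested after 20 weeks, and the primary recipients had been given poly(I:C), the inducer of MxCre recombination. The labels give the genotypes as Dnmt3a and Dnmt3a;Tnfr1KO only, without the alleles, and leave out from which primary transplant each mouse was made. Mice of a group may therefore share a donor, and p-values then measure only the spread between these mice. Host and competitor blood cells carry CD45.1, which the sort was meant to leave out. Cells of mature classes were still found, such as mature B cell-like cells at up to 11.3% of a mouse. Whether any kept cells came from a host or competitor was not tested. The other 2 groups, MxCre (n = 3), the control named for the recombinase alone, and Dnmt3a;Tnfr2KO (n = 4), were used to estimate the spread and to place the values.

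TNFR1, encoded by Tnfrsf1a, is the widely expressed receptor of the inflammatory cytokine TNF and can start NF-kB signalling or cell death through adaptor and ubiquitin-binding proteins. Dnmt3a encodes a DNA methyltransferase whose loss lets blood stem cells expand, and DNMT3A is often mutated in human clonal haematopoiesis. TNFR2, encoded by Tnfrsf1b, binds the same ligand but lacks a death domain.

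After filtering and removal of doublet calls, the Dnmt3a mice had 1924, 2695, 5478 and 5422 cells and the Tnfr1KO-labelled mice 6150, 3582 and 3092 cells, at median depths of 10750.5 to 39086 unique molecular identifiers (UMIs) per cell. The deposited totals were 79731507 to 149896686 UMIs in Dnmt3a and 82341270 to 127808814 in Tnfr1KO-labelled. Kit transcripts were present in every library, at 81.3 to 181.7 CPM (UMIs scaled to a common library total) in Dnmt3a and 85.1 to 123 CPM in Tnfr1KO-labelled. Of the barcodes of Dnmt3a replicate 1, 26.9% passed the filters, against 66.7% to 94.4% in the other mice of the comparison. This mouse had 29.4% of its cells in an unnamed histone-rich cluster, and Tnfr1KO-labelled replicate 1 had 19.4% in an unnamed low-count cluster. Any 2 libraries shared at most 17 cell barcodes. The deposited libraries also carry numbers whose meaning the labels do not state. These run from 26 to 34 in the Dnmt3a mice and from 9 to 14 in the Tnfr1KO-labelled mice, so that number set and genotype cannot be told apart in this comparison. The Dnmt3a;Tnfr2KO mice fall in both sets, replicates 1 and 2 in the lower (numbers 1 to 17) and replicates 3 and 4 in the upper (26 to 39), and their values are given where they bear on a gene.

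Transcripts of the gene named by the label were found in every Tnfr1KO-labelled library. In granulocyte progenitor-like cells Tnfrsf1a stood at 37.3, 47.8, 59.1 and 66.0 CPM in Dnmt3a and at 46.4, 46.9 and 44.3 CPM in Tnfr1KO-labelled. The groups overlapped, and the log2 fold change was -0.21 ± 0.16 (SE, edgeR adjusted p = 0.475). In monocyte progenitor-like cells, where Dnmt3a had 39.6, 52.9, 64.1 and 65.4 CPM, the Tnfr1KO-labelled mice had 40.5, 40.7 and 41.7 CPM (log2 fold change -0.44 ± 0.15, adjusted p = 0.117). A 3' tag count shows the deletion only where the counted end of the transcript is lost, and the labels do not give the deleted part, so these levels check nothing about the genotype. Dnmt3a itself was lower in Tnfr1KO-labelled granulocyte progenitor-like cells, at 19.8, 20.4 and 20.8 CPM against 36.3, 25.4, 25.6 and 27.7 CPM. Those groups did not overlap (log2 fold change -0.49 ± 0.12, adjusted p = 0.0348), and monocyte progenitor-like cells gave -0.55 ± 0.10 (adjusted p = 0.0139). These calls held in 3 and 4 of 7 fits that left out a mouse. The MxCre mean in granulocyte progenitor-like cells was 20.6 CPM. With a term for the number set the granulocyte value was -0.56 (adjusted p = 0.345). Tnfrsf1b had 18.2, 19.5, 17 and 20.0 CPM in Dnmt3a and 15.1, 16.8 and 22.4 CPM in Tnfr1KO-labelled granulocyte progenitor-like cells, overlapping ranges (adjusted p = 0.896). The ligand gene Tnf lay between 1.03 and 1.74 CPM in Dnmt3a and at 3.0, 1.45 and 1.2 CPM in Tnfr1KO-labelled (adjusted p = 0.435).

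**Figure D1:**
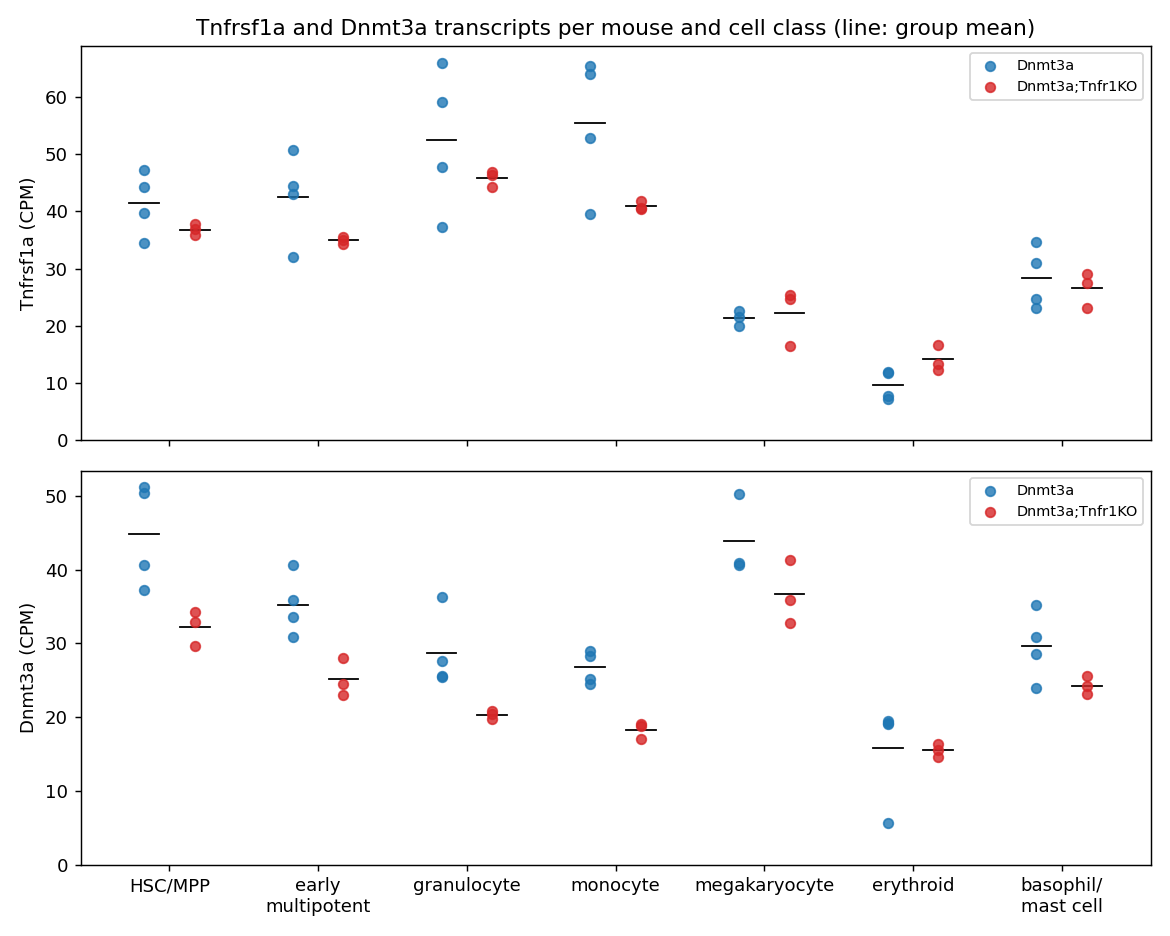
Tnfrsf1a (upper panel) and Dnmt3a (lower panel) transcripts in CPM on the y axis, 1 point per mouse, by cell class on the x axis, with Dnmt3a in blue, Tnfr1KO-labelled in red and lines at group means. In granulocyte progenitor-like cells the Tnfrsf1a values overlap, while the red Dnmt3a values (19.8 to 20.8 CPM) lie below the blue ones (25.4 to 36.3 CPM).

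No share of a cell class was called different between the 2 genotypes by the exact permutation test, which has little power with so few mice. The share of monocyte progenitor-like cells was 10.7%, 13.9%, 22.2% and 8.12% in Dnmt3a and 25.1%, 14.5% and 24.9% in Tnfr1KO-labelled. Their ranges overlapped, with means of 13.7% ± 6.13 (SD, n = 4) and 21.5% ± 6.07 (n = 3) and a two-sided exact permutation p = 0.143 (adjusted 0.929 over 13 named classes). Granulocyte progenitor-like cells averaged 13.3% ± 6.58 and 17.8% ± 4.25 (exact permutation p = 0.371), and HSC/MPP-like cells, the stem and multipotent cells, 12.8% ± 6.59 and 10.2% ± 3.74 (exact permutation p = 0.514). B-lymphoid progenitor-like cells filled 36.4% of Dnmt3a replicate 4 and at most 3.01% of any other mouse of that group. Mature B cell-like cells were 0.39%, 11.3% and 4.40% in Tnfr1KO-labelled, so that 1 mouse carried most of the higher mean. All 13 classes overlapped between the groups, and the lowest p of any class was the 0.143 of monocyte progenitor-like cells, where 35 possible regroupings allow none below 0.0286. After adjustment over 13 classes, a single class with fully separated groups could not pass 0.05. The test therefore cannot show that the shares are alike.

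**Figure D2:**
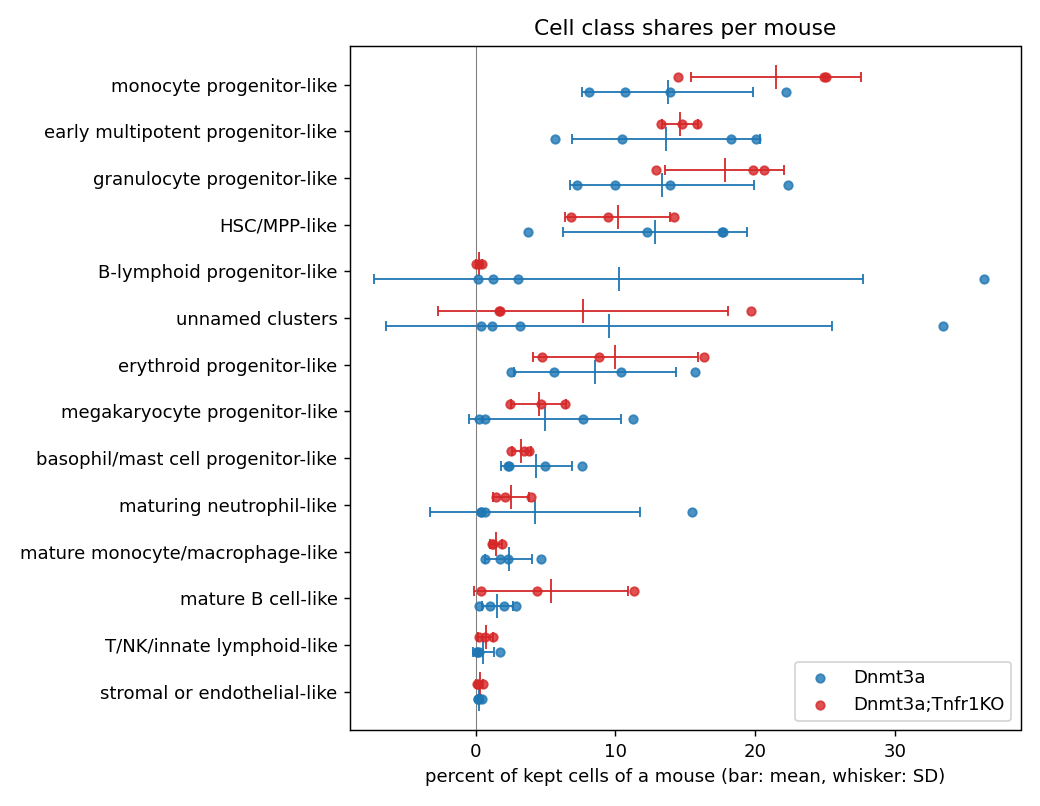
Share of each cell class in percent of a mouse's kept cells, with 1 point per mouse, a bar at the mean and whiskers of 1 SD. The points of Dnmt3a and Tnfr1KO-labelled overlap in every class, and the widest spread is that of B-lymphoid progenitor-like cells in Dnmt3a, up to 36.4%.

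Expression was then compared over the UMIs summed per mouse, first over all cells and then within 7 classes. Over all cells, 43 genes were higher (0.275% of 15620 tested) and 30 lower (0.192%) in Tnfr1KO-labelled mice at an edgeR adjusted p below 0.05, 73 in all (0.467%). HSC/MPP-like cells gave 82 of 12393 genes (0.662%), 53 higher (0.428%) and 29 lower (0.234%). Early multipotent progenitor-like cells gave 309 of 12279 (2.52%), 175 higher (1.43%) and 134 lower (1.09%). Granulocyte progenitor-like cells had the largest count of the 7 classes, 432 of 12451 (3.47%), 246 higher (1.98%) and 186 lower (1.49%). Monocyte progenitor-like cells gave 245 of 12358 (1.98%), 146 higher (1.18%) and 99 lower (0.801%). Megakaryocyte progenitor-like cells, without Dnmt3a replicate 4, which had 13 such cells, gave 38 of 10766 (0.353%), 27 higher (0.251%) and 11 lower (0.102%). Basophil/mast cell progenitor-like cells gave 70 of 10177 (0.688%), 59 higher (0.58%) and 11 lower (0.108%), and erythroid progenitor-like cells 4 of 11155 (0.0359%), all higher. These counts rest on few mice. The granulocyte count was 26, 97 and 107 without Tnfr1KO-labelled replicates 2, 1 and 3. It was 243, 279 and 220 without Dnmt3a replicates 1, 3 and 4, and rose to 620 without Dnmt3a replicate 2. With the number set as a term, 17 genes were called over all cells, of which 4 were among the 73, and 30 in granulocyte progenitor-like cells, of which 11 were among the 432. Only the Dnmt3a;Tnfr2KO mice fall in both sets, so the term rests on replicates 1 and 2 against 3 and 4 of that group. The SE of Lrmda over all cells was 0.16 without the term and 0.24 with it. A call can therefore be lost with the term while the fold change hardly moves. In such sums, fewer cells of a subtype and less RNA per cell cannot be told apart.

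Lrmda, a gene named for a role in melanocyte differentiation (chr14:22019504-23056093, GRCm38.p6), was lower in 6 of the 7 classes. Its level in granulocyte progenitor-like cells stood at 13.9, 22, 20.3 and 18.6 CPM in Dnmt3a and at 2.11, 2.15 and 1.65 CPM in Tnfr1KO-labelled. The groups did not overlap, with a log2 fold change of -3.25 ± 0.16 (adjusted p = 5.73e-09). It was also lower in HSC/MPP-like (-2.79), early multipotent (-2.73), monocyte (-3.28), megakaryocyte (-2.41) and basophil/mast cell progenitor-like cells (-3.20). With the number set as a term the granulocyte value was -3.34 (adjusted p = 2.25e-06). The Tnfr1KO-labelled level was below the other groups as well. Against Dnmt3a;Tnfr2KO, whose mice had 14.1, 13.4, 13.5 and 12.3 CPM, the log2 fold change was -2.75 (adjusted p = 6.72e-08), and against MxCre, with 25.7, 25.4 and 23.1 CPM, it was -3.64 (adjusted p = 1.58e-09). These comparisons share the Tnfr1KO-labelled mice. Of genes within 10 Mb of Lrmda, 6 of 100 tested were called in granulocyte progenitor-like cells, Lrmda included, beside 3.47% over all genes there. Over all cells 3 of 119 were called (2.52%, beside 0.467%), Lrmda and its neighbours Gm10248 and Zfp503, both chosen after their values were seen.

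Gm10248 (chr14:23038194-23094571), a gene model that overlaps one end of Lrmda, had 35, 28, 25 and 12 UMIs over all cells in Dnmt3a and 2, 0 and 1 in Tnfr1KO-labelled (-4.36 ± 0.67, adjusted p = 0.0177). Reads of overlapping genes cannot be told apart where the counting could split them. Zfp503 (chr14:21983959-21989601), a zinc finger gene beside Lrmda, was higher, with 12, 21, 14 and 24 UMIs in Dnmt3a and 52, 164 and 71 in Tnfr1KO-labelled (2.64 ± 0.50, adjusted p = 0.045). The Dnmt3a;Tnfr2KO mice had 99, 110, 40 and 37 UMIs of it. With the number set as a term Gm10248 was -4.37 (adjusted p = 0.185) and Zfp503 1.36 (adjusted p = 0.466). Erythroid progenitor-like cells, where Zfp503 was 1 of the 4 called genes, held 9, 70 and 21 UMIs of it in Tnfr1KO-labelled, 1 UMI in the 4 Dnmt3a mice together and none in MxCre (adjusted p = 0.0122, and 0.45 with the term). The Dnmt3a;Tnfr2KO mice held 12, 21, 5 and 3 UMIs there. Against them the log2 fold change of Tnfr1KO-labelled was 2.1 and was not called (edgeR adjusted p = 0.342).

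A noncoding gene model, A230059L01Rik, was found almost only in the Tnfr1KO-labelled mice. It was chosen after its values were seen, since it lies under 10 CPM, the minimum for the genes picked by size of change. Over all cells it had 386, 502 and 530 UMIs in these mice and 0, 1, 21 and 3 UMIs in Dnmt3a. In CPM this was 3.84, 5.56 and 6.93 against at most 0.149, with no UMI in any Dnmt3a;Tnfr2KO mouse and at most 4 UMIs in an MxCre mouse. It was called higher in each of the 7 tested classes, with an adjusted p of 2.98e-05 in monocyte progenitor-like cells. With the number set as a term it was not called there (adjusted p = 1.00), a fit in which every Dnmt3a;Tnfr2KO and MxCre mouse was at 0. Gm47601, another gene model chosen after its values were seen, was lower, at 3.35, 2.44, 2.58 and 1.69 CPM over all cells in Dnmt3a and 0.328, 0.355 and 0.628 CPM in Tnfr1KO-labelled (log2 fold change -2.53 ± 0.28, adjusted p = 0.00106). The term ended that call, while the Gm47601 calls in HSC/MPP-like, granulocyte and monocyte progenitor-like cells passed with it (adjusted p = 0.0235, 0.043 and 0.0156). Sugp2 (chr8:70234188-70263105), named as a splicing factor and also chosen after its values were seen, was lower by a smaller step in HSC/MPP-like cells, at 35.7, 30.1 and 31.3 CPM against 49.0, 58.0, 49.8 and 52.6 CPM (-0.70 ± 0.11, adjusted p = 0.00774). It was also below Dnmt3a;Tnfr2KO there (-0.67, adjusted p = 0.0146) and below MxCre (-0.59, adjusted p = 0.0117).

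Ckm, the muscle creatine kinase (chr7:19411094-19421583), was higher in all 7 classes. Granulocyte progenitor-like cells of Dnmt3a had 7.19, 16.6, 23.2 and 15.0 CPM, and those of Tnfr1KO-labelled had 206, 239 and 268 CPM. Every Tnfr1KO-labelled value was over the Dnmt3a range (log2 fold change 3.89 ± 0.35, adjusted p = 1.87e-05). The Dnmt3a;Tnfr2KO mice were high too, at 281, 264, 94.6 and 143 CPM, and did not differ by the test from Tnfr1KO-labelled (0.28, adjusted p = 1.00), while MxCre had 10.6 to 15.5 CPM. With the number set as a term the value was 2.69 (adjusted p = 0.00419). The term ended the Ckm calls over all cells and in megakaryocyte, erythroid and basophil/mast cell progenitor-like cells. The erythroid call held in 1 of 7 fits that left out a mouse and was also lost with only the 2 groups, the replicate block and Leiden resolution 2, and the megakaryocyte call held in 3 of 6.

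Mnd1, a meiotic recombination gene (chr3:84087933-84155798), was also higher in both receptor groups. It had 22.5, 36.4, 33.6 and 30.6 CPM in Dnmt3a and 76.7, 71.2 and 65.0 CPM in Tnfr1KO-labelled granulocyte progenitor-like cells (1.19 ± 0.14, adjusted p = 0.000231). Dnmt3a;Tnfr2KO had 69.8, 65.3, 52.8 and 63.8 CPM and MxCre 32.3 to 35.5 CPM. Adding the term for the number set gave 0.98 (adjusted p = 0.0905). Within 10 Mb of Mnd1, a window chosen after its values were seen, 19 of 118 genes were called (16.1%, beside 3.47% over all genes), and none of the 19 was called with the term (adjusted p = 0.0905 for Mnd1 and up to 0.799). Among them Sh3d19, an SH3-domain adaptor gene (chr3:85970805-86130526) chosen after its values were seen, had 8.91, 6.52, 6.99 and 8.17 CPM in Dnmt3a and 0.336, 0.0582 and 0.399 CPM in Tnfr1KO-labelled (-4.73 ± 0.70, adjusted p = 0.00305). The Dnmt3a;Tnfr2KO mice split there, at 0.555 and 0.327 CPM in replicates 1 and 2 and 3.33 and 3.19 CPM in replicates 3 and 4. Anxa9, an annexin gene outside that window (chr3:95296093-95315180), split the same way at 0.678, 0.555, 3.16 and 3.40 CPM, beside 5.14 to 6.72 CPM in Dnmt3a and 0.698 to 1.2 CPM in Tnfr1KO-labelled (-2.83 ± 0.51, adjusted p = 0.0105). For such genes a term for the number set takes up the split of the Dnmt3a;Tnfr2KO mice, and with it the values were -1.86 for Sh3d19 and -0.43 for Anxa9. The 10 Mb on each side of Tnfrsf1a (chr6:125349723-125362483) held 0 called genes of 189 over all cells by edgeR, 6 by DESeq2 (beside 5.92% of all genes), and 25 had an unadjusted p below 0.05 (beside 19.7%). Among granulocyte progenitor-like cells 3 of 138 were called, below the 3.47% of all genes, namely Washc2 (-0.42), Atp6v1e1 (0.49) and Lockd (0.53). DESeq2 called 8 of those 138, beside 7.37% of all genes.

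Eps8l1, named for its likeness to the actin regulator EPS8 (chr7:4460638-4480487), was close to absent in both receptor groups and was chosen after its values were seen. Over all cells it had 3.43, 4.23, 2.95 and 2.21 CPM in Dnmt3a and 0.00994, 0.0776 and 0.0785 CPM in Tnfr1KO-labelled (-5.87 ± 0.49, adjusted p = 7.66e-05). Adding the term for the number set gave -6.42, which was not called (adjusted p = 0.0508). In early multipotent progenitor-like cells Eps8l1 was called by edgeR without the term (-6.08, adjusted p = 1.37e-05) and narrowly with it (-7.53, adjusted p = 0.0499). Dnmt3a;Tnfr2KO had at most 0.0277 CPM and MxCre 3.04 to 3.50 CPM. Dnaaf3 (chr7:4522933-4532488), also chosen after its values were seen, was higher in both receptor groups. Over all cells it had 0.989, 1.29, 2.34 and 1.52 CPM in Dnmt3a. Tnfr1KO-labelled had 5.93, 6.04 and 5.31 CPM (1.90 ± 0.35, edgeR adjusted p = 0.0403). Its call passed with the term (3.14, adjusted p = 0.00808). Dnmt3a;Tnfr2KO had 3.47, 3.44, 8.39 and 7.88 CPM of Dnaaf3 and MxCre 1.06 to 1.69 CPM. Pira2, described below, is on chr7 too, and any link was not tested.

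Ifi30, which encodes a lysosomal thiol reductase used in antigen processing (chr8:70762773-70766663), was higher in 6 classes. Among granulocyte progenitor-like cells Dnmt3a had 1.71, 2.55, 3.17 and 2.60 CPM and Tnfr1KO-labelled 12.3, 11.2 and 8.14 CPM, without overlap (2.01 ± 0.32, adjusted p = 0.00526). MxCre had 4.41 to 11.9 CPM and Dnmt3a;Tnfr2KO 6.01 to 13.4 CPM, ranges that also lay above the Dnmt3a mice. The log2 fold changes were 1.60 in HSC/MPP-like, 1.23 in monocyte and 2.2 in megakaryocyte progenitor-like cells. Each of those calls also passed with the number set as a term (2.88 in granulocyte progenitor-like cells, adjusted p = 0.00415). Over all cells it was not called (0.63, adjusted p = 0.404), where Dnmt3a replicate 4 stood at 46.5 CPM and the other 3 Dnmt3a mice at 10.5 to 14.8 CPM.

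**Figure D3:**
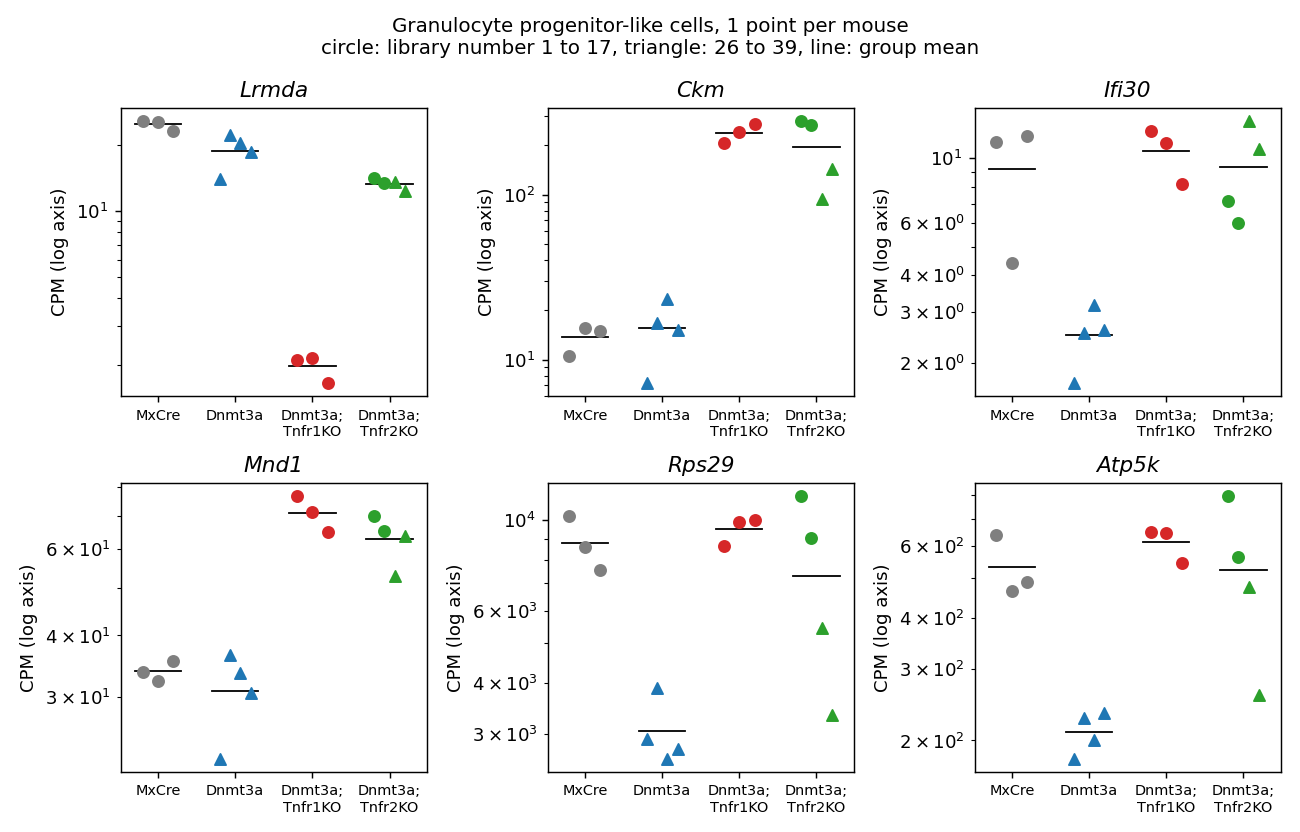
CPM of 6 genes in granulocyte progenitor-like cells on log axes, with 1 point per mouse in each of the 4 groups, lines at group means, circles for library numbers 1 to 17 and triangles for 26 to 39. Lrmda is low in Tnfr1KO-labelled (1.65 to 2.15 CPM), Ifi30 is low in Dnmt3a, and the Dnmt3a;Tnfr2KO circles of Rps29 and Atp5k lie above its triangles.

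Genes of the TNF pathway gave single calls. Of the receptors and ligands of the family, 0 of 23 were called over all cells by edgeR and 2 by DESeq2, and 4 had an unadjusted p below 0.05, where 0.467%, 5.92% and 19.7% of all genes did. In early multipotent progenitor-like cells 1 of 18 was called (5.56%, beside 2.52% over all genes). This was Tnfrsf18, a costimulatory receptor, at 3.88, 5.02 and 5.63 CPM against 2.75, 2.34, 2.30 and 1.83 CPM (1.07 ± 0.24, adjusted p = 0.0285). That call held in 3 of 7 fits that left out a mouse and was lost with the replicate block, with doublets kept and with the number set as a term (1.58, adjusted p = 0.0856). Of 40 genes of proximal TNF receptor signalling, 1 was called over all cells (2.5%, beside 0.467% over all genes). Otulin, which removes linear ubiquitin chains from the receptor complex, had 48.9, 49.2, 54.4 and 45.4 CPM in Dnmt3a and 68.3, 71.9 and 68.8 CPM in Tnfr1KO-labelled. These values did not overlap (0.49 ± 0.10, adjusted p = 0.046), and HSC/MPP-like, early multipotent, granulocyte and monocyte progenitor-like cells gave 0.50, 0.45, 0.47 and 0.48. Over all cells the call held in 1 of 7 fits that left out a mouse, the one without Dnmt3a replicate 2, and was lost with only the 2 groups (adjusted p = 0.0908), without the low-count filter (0.0611), with the replicate block (0.0889) and with the number set as a term (0.37, adjusted p = 0.444). The term also ended the calls in the 4 classes. The medians of the proximal list were -0.08 over all cells and -0.03 in granulocyte progenitor-like cells, beside -0.05 and 0.01 over all genes tested.

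Of 37 NF-kB subunits and targets tested in monocyte progenitor-like cells, 1 was called (2.70%, beside 1.98% over all genes). Tnfaip2, a TNF-induced gene, stood at 26.7, 27, 21.9 and 24.1 CPM in Dnmt3a and 52.1, 49.8 and 46.7 CPM in Tnfr1KO-labelled (1.00 ± 0.21, adjusted p = 0.0234). It was also higher in early multipotent (0.81), granulocyte (0.86) and basophil/mast cell progenitor-like cells (1.06). The MxCre mean of 46.5 CPM and the Dnmt3a;Tnfr2KO mean of 39.4 CPM in monocyte progenitor-like cells were nearer to Tnfr1KO-labelled. Adding the term gave 0.51 (adjusted p = 0.63) and ended the calls in the other 3 classes as well. Of 7 fits that left out a mouse, the Tnfaip2 call held in 2 in monocyte, 1 in early multipotent, 1 in granulocyte and 3 in basophil/mast cell progenitor-like cells, and the replicate block ended the early multipotent and granulocyte calls. Of 48 interferon response genes in granulocyte progenitor-like cells 1 was called lower (2.08%, beside 3.47% of all genes in either direction and 1.49% lower), the RNA sensor gene Ifih1, at 8.96, 7.04 and 7.79 CPM against 16.4, 11.3, 10.5 and 12.3 CPM (-0.64 ± 0.16, adjusted p = 0.0404). The Ifih1 call held in 2 of 7 fits that left out a mouse and was lost with only the 2 groups and with the term (-0.89, adjusted p = 0.211). Over all cells, 0 of 29 genes of the BCL2 family were called by edgeR and 0 by DESeq2, and 3 had an unadjusted p below 0.05. Of all genes, 0.467%, 5.92% and 19.7% did so. Of 40 genes of lymphoid priming edgeR called 0 over all cells, but DESeq2 called 8 (5.92% over all genes) and 13 had an unadjusted p below 0.05 (19.7% over all genes). These sums include B-lymphoid progenitor-like cells, which filled 36.4% of Dnmt3a replicate 4 and at most 3.01% of the other Dnmt3a mice. Their part in these counts was not tested.

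Genes of antigen presentation gave 3 calls of 11 class II genes and 3 of 22 class I genes in early multipotent progenitor-like cells, all higher (27.3% and 13.6%, beside 1.43% of all genes higher there). Beside Ifi30 the class II calls were the invariant chain gene Cd74, at 7.87, 9.68 and 7.06 CPM against 1.43, 2.08, 2.64 and 3.80 CPM (1.69 ± 0.29, adjusted p = 0.00894), and H2-Aa (1.53). Cd74 was also higher than in Dnmt3a;Tnfr2KO (2.48, adjusted p = 0.000357), and against MxCre it was 1.14 (adjusted p = 0.308). The calls of Cd74 and H2-Aa were lost with the number set as a term (1.64, adjusted p = 0.356, and 1.76, adjusted p = 0.219) and at the finer Leiden resolution of 2, where the values were 0.77 (adjusted p = 0.225) and 0.60 (adjusted p = 0.308). Cd74 was also not called without Tnfr1KO-labelled replicate 2 (1.56). The 9 mature B cell markers summed to 15.0 to 17.2 CPM in Tnfr1KO-labelled and 5.23 to 8.43 CPM in Dnmt3a in the same cells. This list holds the called genes Cd74 and H2-Aa and a further class II gene, H2-Eb1. The sum thus rises with the called genes themselves and is no separate measure of B cells. No marker of the list was at 0 in all 7 mice, and the part of B cells in the result was not tested. The class I calls were H2-Q6 (0.74), Tapbp (0.35) and Psme1 (0.59), which were lost with the set term (adjusted p = 0.985, 0.611 and 0.63) and with the replicate block.

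The lists of G2 and M phase, S phase, neutrophil and myeloid regulator genes gave 1 to 3 calls each in granulocyte progenitor-like cells, at shares of 3.45% to 5.77% beside 3.47% over all genes. Mki67, a marker of cycling cells, was lower in granulocyte progenitor-like cells, at 129, 109 and 123 CPM against 233, 177, 192 and 194 CPM (-0.72 ± 0.13, adjusted p = 0.0105). The MxCre mean was 119 CPM, and 2 of 52 G2 and M phase genes were lower (with Kif11, -0.43) and 1 higher (Hmgb2, 0.47). Of 44 S phase genes, Usp1 (-0.37) and Pola1 (-0.44) were lower in the same cells. Among neutrophil genes Wfdc21 was the 1 of 21 called, at 283, 324 and 283 CPM against 50.1, 84.9, 99.2 and 168 CPM (1.55 ± 0.30, adjusted p = 0.0146). Of 29 myeloid transcription factor and receptor genes the interleukin-6 receptor gene Il6ra was lower in the same cells (-0.49), and it lies within the window around Mnd1. In monocyte progenitor-like cells Tal1, a regulator of stem and erythroid cells (-0.63), and the integrin gene Itga6 (-0.71) were lower, and the cell cycle regulator E2f1 (0.45) and the calcium-binding protein gene S100a4 (0.69) were higher. The number set term ended the call of each of these 11 genes, among them Mki67 (-0.56, adjusted p = 0.386) and Wfdc21 (1.86, adjusted p = 0.169). Of 7 fits that left out a mouse, Mki67 and Wfdc21 kept their calls in 6, Kif11 and E2f1 in 1, and Hmgb2, Usp1 and Il6ra in 2. The granulocyte class joins clusters 0 and 4. With the cells of a group pooled over its mice, cluster 0 made up 61.0% of it in Dnmt3a and 51.2% in Tnfr1KO-labelled. Dnmt3a replicate 3 gave 1223 of the 2275 pooled cells and Tnfr1KO-labelled replicate 1 gave 1271 of 2347, so these are not means of mice.

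HSC/MPP-like cells, the class nearest to stem cells, gave 82 calls, 0.662% of the 12393 genes tested there, among them genes not yet described. Trim24, a chromatin-reading cofactor, had 32.8, 30.6, 31.4 and 28 CPM in Dnmt3a and 21.5, 18.5 and 18.5 CPM in Tnfr1KO-labelled (-0.66 ± 0.11, adjusted p = 0.00774), and the MxCre mean was 19.7 CPM. Dst, a cytoskeletal linker gene, had 36.2, 19.7, 19.6 and 25.4 CPM in Dnmt3a and 12.2, 12.9 and 10.7 CPM in Tnfr1KO-labelled (-1.05 ± 0.23, adjusted p = 0.0423). The Tnfr1KO-labelled level of Dst was below MxCre as well (-1.11, adjusted p = 0.0155), and against Dnmt3a;Tnfr2KO it was -0.78 (adjusted p = 0.407). Crip1, a LIM-domain gene chosen after its values were seen, was higher in 6 classes. Its HSC/MPP-like values were 273, 338, 312 and 301 CPM in Dnmt3a and 543, 572 and 542 CPM in Tnfr1KO-labelled (0.85 ± 0.13, adjusted p = 0.00556), beside 432 to 620 CPM in MxCre. Adding the term for the number set gave 0.81 for Crip1 (adjusted p = 0.204), -0.71 for Trim24 (adjusted p = 0.162) and -0.92 for Dst (adjusted p = 0.548). The Dst call held in 2 of 7 fits that left out a mouse and was lost with the replicate block, and the Trim24 call held in 5 of 7. Tnfrsf1a in these cells was 34.5 to 47.1 CPM in Dnmt3a and 35.8 to 37.8 CPM in Tnfr1KO-labelled (-0.17 ± 0.13, adjusted p = 0.525), and Dnmt3a was 37.2 to 51.2 CPM and 29.7 to 34.2 CPM (-0.47 ± 0.13, adjusted p = 0.0953).

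Of 21 genes of DNA methylation and demethylation, 1 was called in basophil/mast cell progenitor-like cells, where 0.688% of all genes tested were called. This was Tdg, a glycosylase that removes oxidised methylcytosine, at 62.6, 71.8 and 60.1 CPM against 44.1, 40.9, 35.6 and 33.9 CPM (0.77 ± 0.12, adjusted p = 0.00306). Pira2, an activating immunoglobulin-like receptor gene (chr7:3836808-3845104) chosen after its values were seen, was higher in the same cells, at 7.52, 9.32 and 11.8 CPM against 0.297 to 0.705 CPM (4.05 ± 0.39, adjusted p = 1.01e-05). Pira2 was at 5.87 to 9.18 CPM in Dnmt3a;Tnfr2KO and at 0.596 to 0.846 CPM in MxCre, and it has close relatives, so the split of its reads is uncertain. Mki67, a proliferation marker, was lower there too (-0.81 ± 0.18, adjusted p = 0.0368). With the term for the number set, Pira2 was 3.68 (adjusted p = 0.00399), Tdg 0.71 (adjusted p = 0.408) and Mki67 -0.97 (adjusted p = 0.46). The Tdg call held in 7 of 7 fits that left out a mouse and the Mki67 call in 2 of 7. In megakaryocyte progenitor-like cells the class I gene H2-Q6 had 115, 120 and 103 CPM against 59.7, 69.4 and 48.4 CPM (0.87 ± 0.16, adjusted p = 0.0168). That fit holds 3 of the 4 Dnmt3a mice, and with the term H2-Q6 was 0.46 (adjusted p = 0.5). The H2-Q6 call held in 2 of 6 fits that left out a mouse.

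Ribosomal protein genes and nuclear genes of oxidative phosphorylation held the most calls of the 25 lists in granulocyte progenitor-like cells. Of these, 18 of 82 ribosomal protein genes were higher and 1 was lower, and 27 of 81 oxidative phosphorylation genes were higher and none lower, beside 1.98% of all genes higher and 1.49% lower. The list medians were 0.30 and 0.38, beside 0.01 over all genes. Rps29, a small-subunit protein gene, had 2917, 3897, 2617 and 2768 CPM in Dnmt3a and 8656, 9894 and 10011 CPM in Tnfr1KO-labelled (1.64 ± 0.28, adjusted p = 0.00892). Atp5k, a subunit gene of ATP synthase, had 181, 227, 200 and 233 CPM against 649, 644 and 544 CPM (1.54 ± 0.25, adjusted p = 0.00526). The number sets separated the values of both genes: MxCre, of the lower set, had 7551 to 10204 CPM of Rps29, and the Dnmt3a;Tnfr2KO mice had 11425 and 9034 CPM in the lower set and 5462 and 3345 CPM in the upper. With the term, Rps29 was at 0.43 (adjusted p = 0.521), Atp5k at 0.65 (adjusted p = 0.432), and in these cells no gene of either list was called in both fits. The exception in direction, Rps3a1 (-0.67), lies within the window around Mnd1, and its call held in 1 of 7 fits that left out a mouse. Ribosomal protein genes have many near-identical pseudogenes, so the split of their reads is uncertain.

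Replication-dependent histone genes changed in both directions, 6 of 62 higher and 2 lower in granulocyte progenitor-like cells, beside 1.98% and 1.49% of all genes. Hist1h2ap had 21.6, 109, 51.7 and 72.6 CPM in Dnmt3a and 1425, 1308 and 506 CPM in Tnfr1KO-labelled (4.07 ± 0.94, adjusted p = 0.0298), while Dnmt3a;Tnfr2KO had 2208, 527, 69.9 and 57.2 CPM. Hist2h2ac went down, from 106, 111, 51.7 and 56.4 CPM to 13.3, 11.4 and 9.83 CPM (-2.80 ± 0.55, adjusted p = 0.0153). With the number set as a term Hist1h2ap stood at -0.35 and Hist2h2ac at -0.80, neither of them called. The Hist1h2ap call held in 1 of 7 fits that left out a mouse and was lost with the replicate block, and the Hist2h2ac call held in 4 of 7. Histone genes have near-identical copies, so which copy gave the reads is uncertain.

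The called genes also differed in genomic span by direction. For granulocyte progenitor-like cells the median span was 6.29 kb for 240 higher genes with a position, 63.4 kb for 177 lower genes and 21.5 kb for all 11960. Over all cells the medians were 7.41, 47.9 and 21.3 kb. Among the long lower genes was Kcnq1ot1, an imprinted RNA antisense to Kcnq1, at 373, 237, 230 and 213 CPM in Dnmt3a and 123, 104 and 101 CPM in Tnfr1KO-labelled (-1.26 ± 0.17, adjusted p = 0.00159). Whether the counting used strand is not given in the sources used here. The MxCre mean of Kcnq1ot1 was 111 CPM, and with the number set as a term the value was -1.16 (adjusted p = 0.11). The number set moves with the groups, and its part in this difference was not tested. The median UMIs per cell did not separate the groups, at 10750.5 to 39086 in the Dnmt3a mice and 19493 to 25542.5 in the Tnfr1KO-labelled mice.

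**Figure D4:**
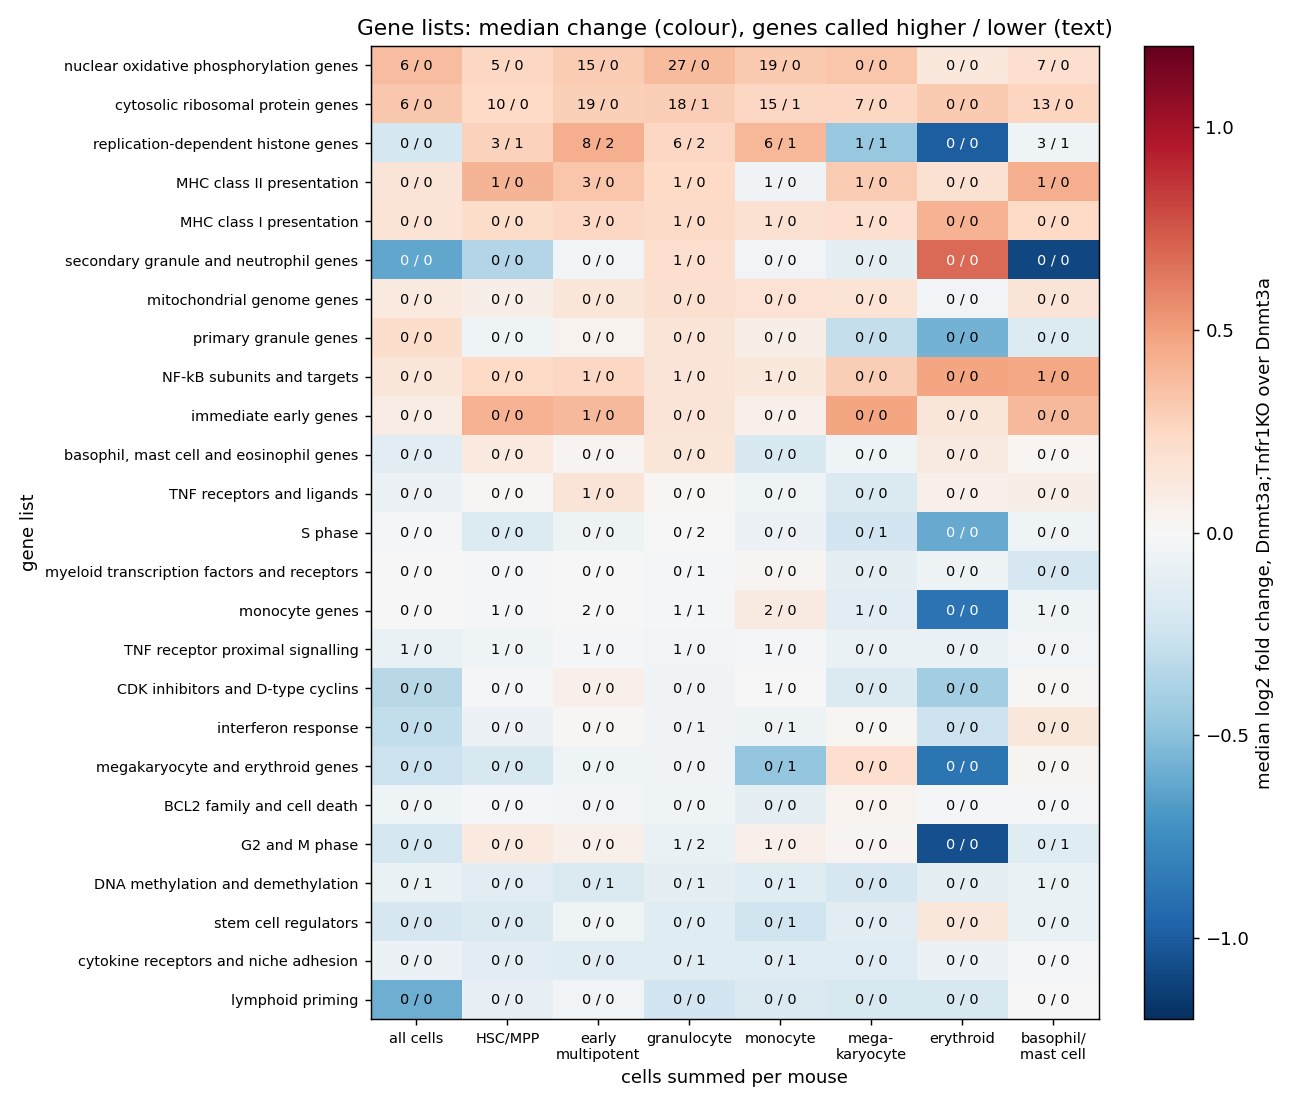
Gene lists (rows) by the cells summed per mouse (columns), with the median log2 fold change of Tnfr1KO-labelled over Dnmt3a as colour and the numbers of genes called higher / lower as text. Oxidative phosphorylation and ribosomal protein genes hold most calls (27 / 0 and 18 / 1 in granulocyte progenitor-like cells).

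**Figure D5:**
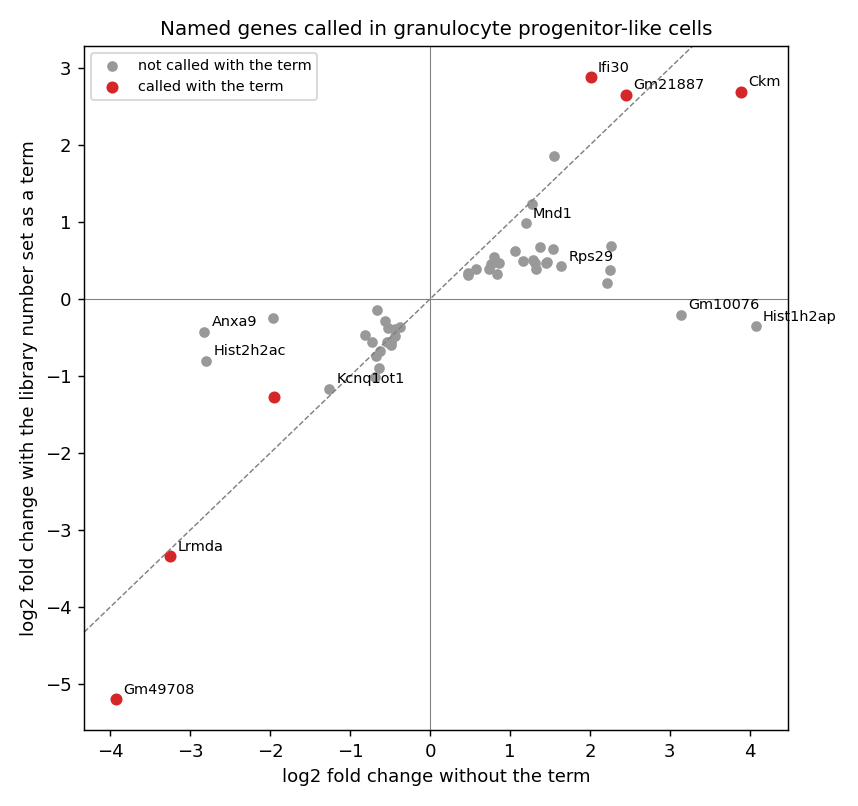
Log2 fold changes of the 51 named genes called in granulocyte progenitor-like cells without (x axis) and with (y axis) the library number set as a term, with red for the 6 also called with the term and a dashed line of equal values. Lrmda, Ifi30, Ckm, Gm21887 and Gm49708 stay far from 0 on both axes, and Gm10076 and Hist1h2ap change sign.

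Gm21887 and Gm49708 are gene models that were called in both fits. Gm21887, on the X chromosome, had 1.14, 1.99, 1.57 and 1.47 CPM in Dnmt3a and 8.78, 6.98 and 9.88 CPM in Tnfr1KO-labelled (2.45 ± 0.22, adjusted p = 1.87e-05), with 11.2 to 13.7 CPM in Dnmt3a;Tnfr2KO. Gm49708 had 7.99, 7.82, 6.50 and 7.49 CPM against 0.520, 0.407 and 0.499 CPM (-3.93 ± 0.44, adjusted p = 0.000231), with 1.74 to 2.55 CPM in MxCre. Across the 7 classes 327 genes were called in 1 class, 144 in 2 classes and 3 in all 7, which were A230059L01Rik, Ckm and Gm21887.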

How the data were processed

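UMI counts of 14 libraries were analysed as deposited: the authors' matrices hold whole-number counts per barcode for 32285 genes, and the file headers name Cell Ranger 6.0.0. The submitters' processing notes name bcl2fastq 2.20.0.422 and the builds mm10 and GRCm38. Barcodes with at least 1000 UMIs, 500 genes and under 10% mt- UMIs were kept, and doublets were called per library at 0.8% per 1000 cells and removed. Cells were clustered (scanpy 1.11.5, 2000 variable genes, 30 principal components, 20 neighbours, Leiden resolution 1) into 26 clusters, 22 of which were named by 160 markers of 16 classes. A name required a mean standardised marker level over 0.5, at least 1 marker among the 10 leading genes and at least 3 markers detected. Raw UMIs were summed per mouse over all cells and per class (at least 20 cells), since the mouse is the replicate. Sums were tested with edgeR 4.0.16 in R 4.3.3: TMM scaling, filterByExpr, a quasi-likelihood fit of 4 groups in 1 model, two-sided tests and Benjamini-Hochberg adjustment over all genes tested. CPM use TMM-scaled library sizes, except for the Kit values and the sums of mature B cell markers, which use unscaled UMI totals. Shares were compared by an exact permutation test on the difference of means.

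Named genes were the up to 12 higher and 12 lower called genes of largest change over all cells, and up to 4 per direction in a class, with at least 10 CPM in a group and no overlap. Of each gene list, every called member was named where at most 5 were called, otherwise the 3 of largest change per direction. Genes called against all other groups, genes near Mnd1 and others said to be so were chosen after their values were seen. The members and lists were chosen with earlier results of these data known. Positions are of GRCm38.p6 in RefSeq, matched by symbol. Alternatives were DESeq2 1.42.0, no filter, only the 2 groups, a replicate block, each mouse left out, doublets kept, 2000 UMIs and Leiden resolution 2, and, added after seeing the data, the number set term and 2 clusters left out. Same-numbered mice did not deviate together over all cells (correlations -0.12, 0.15 and -0.34, with an unlike-numbered pair at 0.38). So few correlations cannot decide whether replicate numbers pair the mice, and they were not taken to do so. On simulated counts with 200 changed genes of 15620 over all cells, 54.5% were recovered at a log2 change of 1 and 78.5% at 2.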

Additional observations from a re-analysis of the deposited data

Results flagged for a closer look

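Dixon's test was applied to 182 sets of values of the 4 Dnmt3a mice, since the 3 Tnfr1KO-labelled mice are too few for it. In 18 of them 1 mouse stood apart from the others, and chance flags about 1 in 20. Dnmt3a replicate 4 stood apart by its shares of B-lymphoid progenitor-like (36.4%), maturing neutrophil-like (15.5%) and T/NK/innate lymphoid-like cells (1.72%), and in erythroid progenitor-like cells by Dnmt3a (5.67 CPM, beside 19.0 to 19.5 CPM) and Gm21887 (0 CPM). Dnmt3a replicate 2 was high in Rpl38 (2089 CPM) and Rps28 (2621 CPM) of granulocyte progenitor-like cells, in Rps28 of monocyte (2795 CPM) and basophil/mast cell progenitor-like cells (2888 CPM), in Rps27 over all cells (1755 CPM) and in Atp5md of early multipotent progenitor-like cells (257 CPM), and low in Tnf of monocyte progenitor-like cells (2.48 CPM). Dnmt3a replicate 1 was high in Kcnq1ot1 of granulocyte (373 CPM) and monocyte progenitor-like cells (365 CPM). It was low in Gm10076 of basophil/mast cell progenitor-like cells (92.7 CPM), in Otulin of early multipotent (44.8 CPM) and granulocyte progenitor-like cells (36.2 CPM), and in S100a4 of monocyte progenitor-like cells (9.26 CPM).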

How the results depend on the processing

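Counts of called genes depended on the processing. All 53 comparisons of shares with another clustering, doublet, depth or denominator setting kept the sign of the difference and left no class called. These include the number of called classes, and the size of the shifts was not compared. In the order all cells, HSC/MPP-like, early multipotent, granulocyte, monocyte, megakaryocyte, erythroid and basophil/mast cell progenitor-like cells, DESeq2 called 924, 365, 688, 918, 592, 121, 69 and 145 genes, and with the library number set term 17, 38, 34, 30, 22, 20, 1 and 10 were called, of which 4, 7, 10, 11, 11, 4, 0 and 4 were among the calls without it. Without a low-count filter, HSC/MPP-like, early multipotent, monocyte, megakaryocyte and basophil/mast cell progenitor-like cells gave 254, 538, 431, 387 and 294. With only the 2 groups, HSC/MPP-like, early multipotent, granulocyte and erythroid progenitor-like cells gave 129, 176, 205 and 0. With the replicate block the counts were 35 over all cells and 128, 181, 118, 69, 0 and 39 in early multipotent, granulocyte, monocyte, megakaryocyte, erythroid and basophil/mast cell progenitor-like cells. The replicate numbers were not taken to pair the mice. With single mice left out the counts ran, in the first order, from 8 to 327, 15 to 293, 27 to 573, 26 to 620, 33 to 401, 4 to 478, 0 to 6 and 27 to 90, and those of basophil/mast cell progenitor-like cells that moved by over 1.5 times from 27 to 34. Over all cells the lowest count came without Tnfr1KO-labelled replicate 3 and the highest without Dnmt3a replicate 2.

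Dnmt3a over all cells (-0.48) kept its sign but was not called without a low-count filter (-0.45), with only the 2 groups (-0.46), the replicate block (-0.48), the set term (-0.47), doublets kept (-0.48) or lymphoid cells left out (-0.45), or in 6 of 7 leave-one-out fits (-0.52 to -0.45 over all 7). Near Tnfrsf1a, DESeq2 called 6 genes over all cells and 8 in granulocyte progenitor-like cells, where only the 2 groups gave 1, the replicate block 0, the set term 0 and leave-one-out fits 0 to 5, and 1 such fit over all cells called 1. The set term changed the sign for Tnfrsf1a over all cells (0.27), in HSC/MPP-like (0.16), granulocyte (0.076) and basophil/mast cell progenitor-like cells (0.054), for Tnfrsf1b over all cells (0.051) and in basophil/mast cell progenitor-like cells (0.11), and for Tnf in monocyte progenitor-like cells (-0.18). The same holds for Hist1h2ap in early multipotent (-0.18), granulocyte (-0.35), monocyte (-0.10) and basophil/mast cell progenitor-like cells (-0.71), for Gm10076 in the same 4 classes (-0.13, -0.20, -0.27 and -0.048), and for Hist1h2br (-0.043) and Hist2h2aa1 (-0.38) in basophil/mast cell progenitor-like cells. Tnfrsf1b changed sign with the replicate block in HSC/MPP-like cells (-0.0097) and, in erythroid progenitor-like cells, with doublets kept (-0.16) and at Leiden resolution 2 (-0.17). The causes were not tested.

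With single mice left out, these values ran across 0. Tnf ran from -0.41 to 0.80 over all cells, -0.45 to 0.41 in HSC/MPP-like, -0.27 to 0.80 in early multipotent, -0.16 to 0.63 in granulocyte, -0.54 to 0.76 in monocyte and -0.85 to 0.15 in megakaryocyte progenitor-like cells. Tnfrsf1b ran from -0.23 to 0.11 over all cells, -0.14 to 0.12 in HSC/MPP-like, -0.44 to 0.021 in basophil/mast cell, -0.27 to 0.36 in erythroid and -0.23 to 0.073 in granulocyte progenitor-like cells. Tnfrsf1a ran from -0.018 to 0.25 in megakaryocyte and Dnmt3a from -0.31 to 0.029 in erythroid progenitor-like cells. The share differences, in percentage points, ran from -0.12 to 0.55 for T/NK/innate lymphoid, -1.73 to 0.054 for basophil/mast cell progenitor, -1.65 to 3.15 for early multipotent, -1.77 to 4.05 for erythroid, -3.01 to 2.04 for maturing neutrophil, -2.04 to 1.64 for megakaryocyte progenitor and -0.085 to 0.12 for stromal or endothelial-like cells. Of 186 values of named genes, the set term kept 40 on the same side of the threshold, moved 129 out of it and reversed 17. Leaving out Tnfr1KO-labelled replicates 1, 2 and 3 moved 86, 117 and 92 of them out, leaving out Dnmt3a replicates 1 to 4 moved 71, 9, 65 and 73, the replicate block 63 and only the 2 groups 36. Lrmda was called in all cells and 6 classes under every alternative run there.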
